A study of Homo sapiens with 6 samples.

Results

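The 10 genes described here are the ID genes ID1, ID2, ID3 and ID4, the inhibitory SMAD genes SMAD6 and SMAD7, the pseudoreceptor gene BAMBI, the corepressor gene SKIL, and the ligand genes BMP2 and BMP4. They are 10 of the 19775 genes that have their own probe set on the array. They were chosen by name, as inhibitors, feedback regulators and ligands of the BMP and TGF-beta pathways, and were selected on their changes after regorafenib in an earlier look at the same arrays. RNA came from HuccT1, a bile duct carcinoma line, and KKU-100, a poorly differentiated cholangiocarcinoma line, each exposed to solvent, to a low dose or to a high dose of regorafenib, an inhibitor of receptor and RAF kinases. The labels put the doses at 1 μM and 10 μM, whereas the paper's text gives lower concentrations and a treatment of hours. All 6 samples share a stable transduction with puromycin selection in the labels, with no construct named, and each condition has 1 array, so that the comparison of a dose with solvent has no replicate check.

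The ID proteins have a helix-loop-helix domain but no DNA-binding region. They pair with E proteins such as TCF3 and TCF12 and keep them from DNA. Their genes are classical immediate targets of BMP signalling, in which ligands such as BMP2 and BMP4 activate receptors that phosphorylate SMAD1 and SMAD5. SMAD6, SMAD7 and BAMBI are induced by the same ligands, and SKIL by TGF-beta, and they dampen the signal at the receptor or on DNA. In bile duct cells, BMP and TGF-beta signals are known for their part in fibrosis and in epithelial plasticity.

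Signal intensities were deposited on a linear scale, with array medians between 28.8 and 29.3 and lowest signals between 3.63 and 4.05. They were log2 transformed without further scaling. The number of arrays limits the precision. Signals of different probe sets do not compare the levels of different genes, and no detection call stands behind a signal below the array median. A level filter at the 50th percentile of the mean log2 signal within a line kept 9 of the 10 genes in either line, all but ID4. Of the markers of biliary epithelium, 6 of 6 passed the filter in HuccT1. In KKU-100 KRT19 and EPCAM were between 8.62 and 11.1, far below the array median, against the label of a bile duct line, while KRT7, KRT8, KRT18 and SOX9 passed.

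The promoters of ID1, ID2 and ID3 are shown because these genes share a regulator but differed in their changes, and those of SMAD6 and BAMBI because these had the largest rises of the 10 genes in HuccT1, SMAD6 after the low dose and BAMBI after the high dose. Each window runs from 250 bases before to 50 after the start of the gene in RefSeq (build GRCh38.p14), 5′ to 3′ on the gene's strand. Capitals mark the motifs searched for on both strands: the GC-rich motif GGCGCC of SMAD1 and SMAD5, the palindrome GTCTAGAC and the core CAGAC of SMAD3 and SMAD4, the cyclic AMP response element TGACGTCA, the E-box CACGTG, the EGR1 motif GCGTGGGCG, the AP-1 motif TGACTCA and the TATA box TATAAA. The windows lie at chr20:31605039-31605338 (plus strand), chr2:8681806-8682105 (plus), chr1:23559452-23559751 (minus), chr15:66701986-66702285 (plus) and chr10:28677271-28677570 (plus).
ID1: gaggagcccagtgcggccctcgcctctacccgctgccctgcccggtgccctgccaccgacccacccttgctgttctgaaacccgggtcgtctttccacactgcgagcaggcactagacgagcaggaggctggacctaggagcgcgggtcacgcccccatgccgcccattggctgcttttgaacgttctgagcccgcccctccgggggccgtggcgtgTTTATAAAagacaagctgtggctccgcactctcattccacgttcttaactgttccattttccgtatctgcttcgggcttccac
ID2: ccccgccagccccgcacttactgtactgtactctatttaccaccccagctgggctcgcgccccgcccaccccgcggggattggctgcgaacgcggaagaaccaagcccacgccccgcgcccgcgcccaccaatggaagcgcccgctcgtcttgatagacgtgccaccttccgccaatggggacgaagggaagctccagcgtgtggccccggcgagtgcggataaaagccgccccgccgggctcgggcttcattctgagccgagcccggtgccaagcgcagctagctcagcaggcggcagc
ID3: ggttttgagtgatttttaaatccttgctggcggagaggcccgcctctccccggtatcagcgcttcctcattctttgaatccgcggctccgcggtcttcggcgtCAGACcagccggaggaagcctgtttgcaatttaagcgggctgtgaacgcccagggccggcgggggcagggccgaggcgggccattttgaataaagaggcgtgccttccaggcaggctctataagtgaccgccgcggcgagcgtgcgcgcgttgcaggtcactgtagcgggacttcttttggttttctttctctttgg
SMAD6: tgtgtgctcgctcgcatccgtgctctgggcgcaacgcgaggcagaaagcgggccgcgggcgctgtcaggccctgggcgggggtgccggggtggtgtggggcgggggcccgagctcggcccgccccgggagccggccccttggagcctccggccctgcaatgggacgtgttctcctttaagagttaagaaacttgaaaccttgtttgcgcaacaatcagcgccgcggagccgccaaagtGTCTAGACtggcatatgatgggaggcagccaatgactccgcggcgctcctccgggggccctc
BAMBI: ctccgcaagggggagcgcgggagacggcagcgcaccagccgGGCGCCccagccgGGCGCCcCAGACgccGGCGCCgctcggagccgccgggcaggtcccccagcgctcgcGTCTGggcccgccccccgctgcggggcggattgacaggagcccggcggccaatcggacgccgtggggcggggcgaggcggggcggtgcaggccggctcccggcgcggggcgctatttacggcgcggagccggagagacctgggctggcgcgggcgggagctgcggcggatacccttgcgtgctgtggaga

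The ID1 window holds a TATA box, read on both strands of 1 stretch that begins 33 bases before the start. ID3 holds 1 CAGAC core at −147, and the ID2 window holds none of the 8 motifs. SMAD6 carries the palindrome GTCTAGAC at −12, which stands in 0.202% of 35116 promoter windows in the table. BAMBI has 3 GC-rich motifs between −209 and −181 and 2 CAGAC cores, at −189 and −140. Of all windows 19.2% hold GGCGCC and 45.3% hold CAGAC, so single copies of these are common. TGACGTCA stands in 1.85%, CACGTG in 7.26%, GCGTGGGCG in 0.795%, TGACTCA in 4.95% and TATAAA in 11.5% of the windows. These are matches of letters, not sites, and a window of 300 bases leaves out distal elements. Of the 10 genes, 9 matched a window in the table, and BMP2 is named only.

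ID1, the founding member of the inhibitor family, went up at the low dose and below solvent at the high dose in both lines. In HuccT1 the signal was 2148 with solvent, 3980 after the low dose and 1408 after the high dose. The KKU-100 arrays gave 1136, 2196 and 944. The low-dose array was the highest of the 3 in either line. The log2 fold changes against solvent were 0.89 and −0.61 in HuccT1, against 0.95 and −0.27 for KKU-100, of which the last lies within 1.5-fold, the cutoff used here. From the low to the high dose ID1 differed by a log2 of −1.50 in HuccT1 and −1.22 in KKU-100. Of 12033 genes above the level filter in both lines, 1 was higher past 1.5-fold at the low dose in both lines and below solvent at the high dose in both, and that gene is ID1, on whose values this pattern was written. In RNA of whole cultures, a change in the share of cells and a change per cell cannot be told apart.

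ID3, which shares the helix-loop-helix domain and many E protein partners with ID1, rose past 1.5-fold in all 4 comparisons. Its signal was 381 with solvent, 991 after the low dose and 1144 after the high dose in HuccT1. The 3 arrays of KKU-100 gave 89.1, 377 and 356. All 4 treated arrays were above the solvent array of their line. On the log2 scale the changes were 1.38 and 1.59 in HuccT1, against 2.08 and 2.0 for KKU-100, the largest of them 4.23-fold. In KKU-100, 4 of 12694 genes had a larger rise at the low dose and 12 with the high dose. In all, 54 of the 12033 genes, 0.449%, were higher past 1.5-fold in the 4 comparisons.

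ID2, known as a target of MYC and of BMP signals that binds E proteins in the same way, differed in direction between the lines. In HuccT1 the signal of its brighter probe set was 1040 with solvent, 2108 after the low dose and 1429 after the high dose. The KKU-100 arrays gave 170, 15.5 and 44.4. Both treated arrays lay above solvent in HuccT1 and below it in KKU-100. The log2 fold changes were 1.02 and 0.46 in HuccT1, the second within the cutoff, against −3.45 and −1.94 for KKU-100, a fall of 10.9-fold and 3.83-fold. At the low dose in KKU-100 the signal stood at percentile 34.2 of the probe sets of that array, below its median, so that the size of this fall is uncertain. In that line 6 of 12694 genes fell further at the low dose and 20 with the high dose, for a gene selected on such changes. The fall was deeper at the low dose, and from the low to the high dose ID2 came back by a log2 of 1.51.

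A second probe set of ID2, of a design that can bind related transcripts, went the same way in each comparison. It gave 244, 557 and 368 in HuccT1, and 36.9, 11.6 and 15.6 for KKU-100, with log2 fold changes of 1.19 and 0.60 and of −1.66 and −1.24. In KKU-100 both treated signals of this probe set were below the array median. A probe set annotated to ID2 together with its pseudogene ID2B was left out by the rule. By the probe sets annotated to ID2 alone, the contrast in KKU-100 is thus a fall of ID2 at both doses. On the same arrays ID3 rose at both doses and ID1 rose at the low dose. ID2 and ID3 were the pair farthest apart among the 10 genes, with a distance of 6.89 over the 4 log2 fold changes, against 4.83 for ID2 and ID1 and 3.39 for ID1 and ID3. Higher past 1.5-fold at the low dose in HuccT1 and lower past it at both doses in KKU-100 were 9 of the 12033 genes. ID2 is among them, and this pattern was written on its values, so nothing is read from the count.

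**Figure D1:**
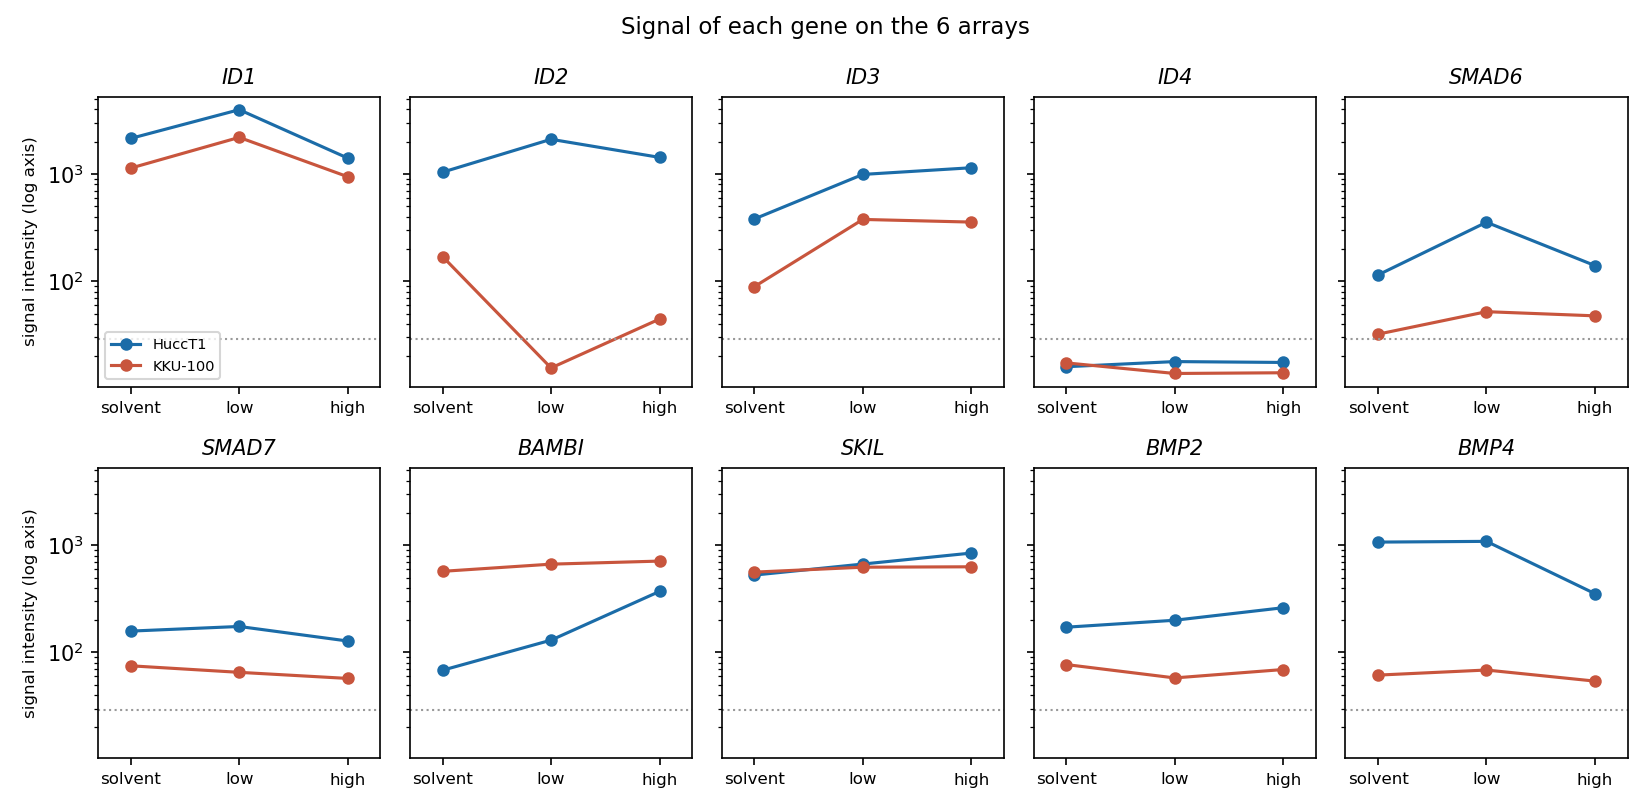
Signal intensity (log axis) of each of the 10 genes on the 6 arrays, by treatment, for HuccT1 (blue) and KKU-100 (red), 1 array per point; the dotted line marks the median signal of an array. ID2 drops from 170 to 15.5 and 44.4 in KKU-100, while ID3 climbs from 89.1 to 377 and 356 on the same arrays, and ID4 lies below the median throughout.

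ID4, the ID gene best known from neural and mammary cells, gave no signal above the array median. Its 5 probe sets ranged from 4.47 to 17.8 over all arrays. Their log2 fold changes lay between −0.33 and 0.34. At such signals the arrays do not show whether ID4 was expressed or changed.

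SMAD6, the inhibitory SMAD that acts mainly on BMP receptors and SMAD1, rose at the low dose in both lines. In HuccT1 its brightest probe set gave 114 with solvent, 355 after the low dose and 140 after the high dose. In KKU-100 the signal was 32.1, 52.0 and 47.6, close to the array median. The low-dose array was the highest of the line, as for ID1. The changes were 1.63 and 0.29 in HuccT1, against 0.70 and 0.57 for KKU-100 on the log2 scale, the last just inside the cutoff of 0.585. The other 3 probe sets of SMAD6 stayed below the array median on every array, between 10.9 and 25.8, and as the median over all its probe sets SMAD6 was at 0.26 in HuccT1 and 0.03 in KKU-100 at the low dose.

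SMAD7, which blocks receptors of both pathways and recruits the ubiquitin ligase SMURF2 to them, stayed within 1.5-fold. Its signal was 158, 175 and 128 in HuccT1, and 75.1, 65.3 and 57.3 for KKU-100. The log2 fold changes were 0.14 and −0.31 in HuccT1, against −0.20 and −0.39 for KKU-100. The high-dose array was the lowest of the 3 in either line, and the arrays do not show a rise of SMAD7 alongside that of SMAD6 at the low dose.

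BAMBI, a pseudoreceptor that binds ligand receptors without signalling, rose in HuccT1 with dose. The signal there was 68.3 with solvent, 130 after the low dose and 371 after the high dose. KKU-100 gave 571, 667 and 712. In HuccT1 the log2 fold changes were 0.93 and 2.44, the latter a rise of 5.43-fold that 27 of 12789 genes exceeded. In KKU-100 they were 0.22 and 0.32, within the cutoff. Even after the rise, the high-dose array of HuccT1 lay below the 3 arrays of KKU-100.

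SKIL, which encodes the corepressor SnoN and is induced by TGF-beta, was read differently by its probe sets. The brightest gave 527, 668 and 846 in HuccT1, and 562, 624 and 630 for KKU-100, with log2 fold changes of 0.34 and 0.68 and of 0.15 and 0.17. A further probe set gave 52.8, 47.3 and 95.9 in HuccT1, and 154, 50.6 and 66.5 for KKU-100. For that one the changes were −0.16 and 0.86 in HuccT1, against −1.60 and −1.21 for KKU-100. Another was at −0.04 and 0.08 in HuccT1, against −0.76 and −0.63 for KKU-100, and the last 2 lay below the array median. Thus in KKU-100 SKIL was within 1.5-fold by its brightest probe set and lower past it by both other probe sets above the median. In HuccT1 at the high dose, its change falls to 0.08 as the median over the probe sets. Which transcripts each of these probe sets reads was not examined here.

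**Figure D2:**
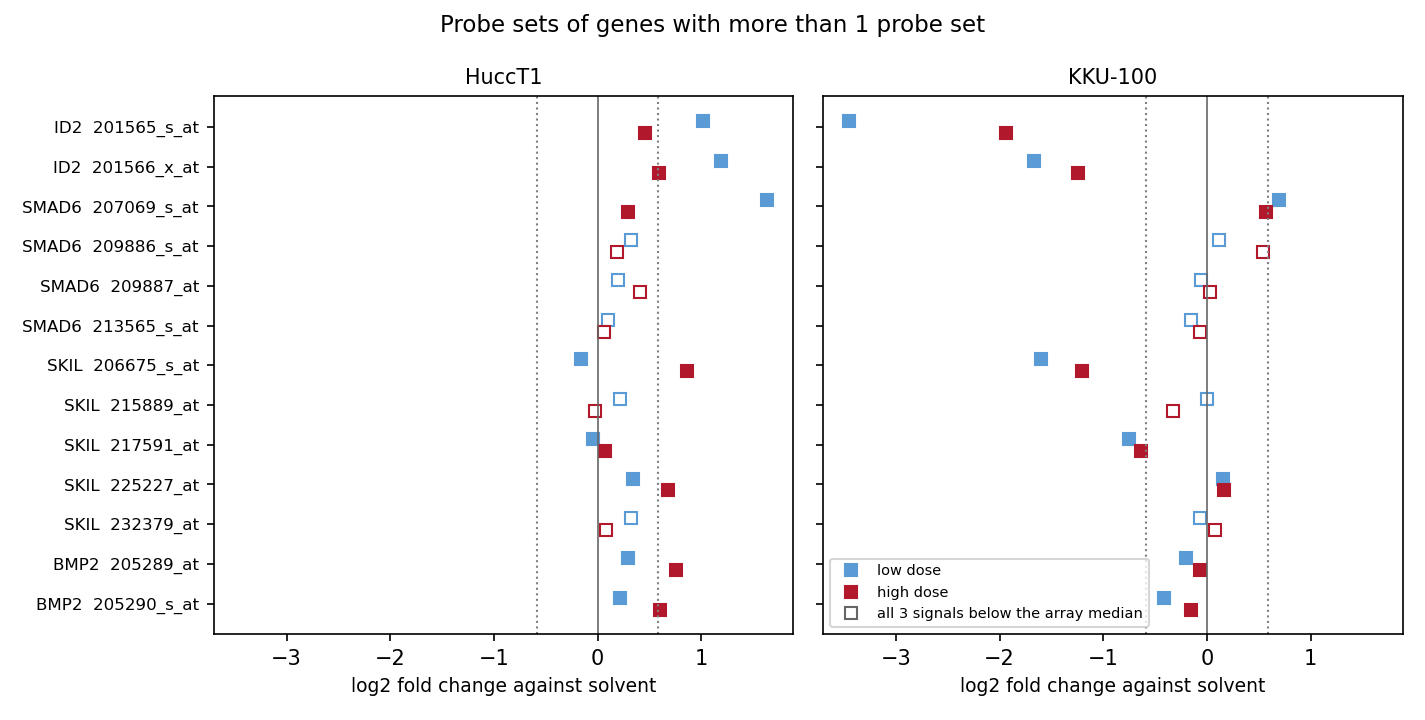
Every probe set is plotted by its log2 fold change against solvent, for ID2, SMAD6, SKIL and BMP2 with HuccT1 on the left and KKU-100 on the right, blue for the low dose and red for the high dose; open squares mark probe sets whose 3 signals in the line lie below the array median, and dotted lines mark 1.5-fold. Both probe sets of ID2 lie on the same side in each line, whereas those of SKIL spread from −1.60 to 0.17 in KKU-100.

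BMP4, a ligand that activates SMAD1 and SMAD5, fell in HuccT1 at the high dose alone. Its signal in that line was 1070 with solvent, 1087 after the low dose and 354 after the high dose, and KKU-100 had 61.5, 68.6 and 54.1. The log2 fold changes were 0.02 and −1.60 in HuccT1, where 60 of 12789 genes fell further at the high dose, and 0.16 and −0.19 in KKU-100. BMP2, the closest relative of BMP4, had 172, 200 and 262 in HuccT1, and 77.2, 57.9 and 69.4 for KKU-100. Its log2 fold changes were 0.22 and 0.60 in HuccT1, the second just past the cutoff, and −0.41 and −0.15 in KKU-100. Its other probe set gave 0.29 and 0.76 in HuccT1, against −0.20 and −0.07 for KKU-100. The 2 ligands therefore went opposite ways at the high dose in HuccT1.

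**Figure D3:**
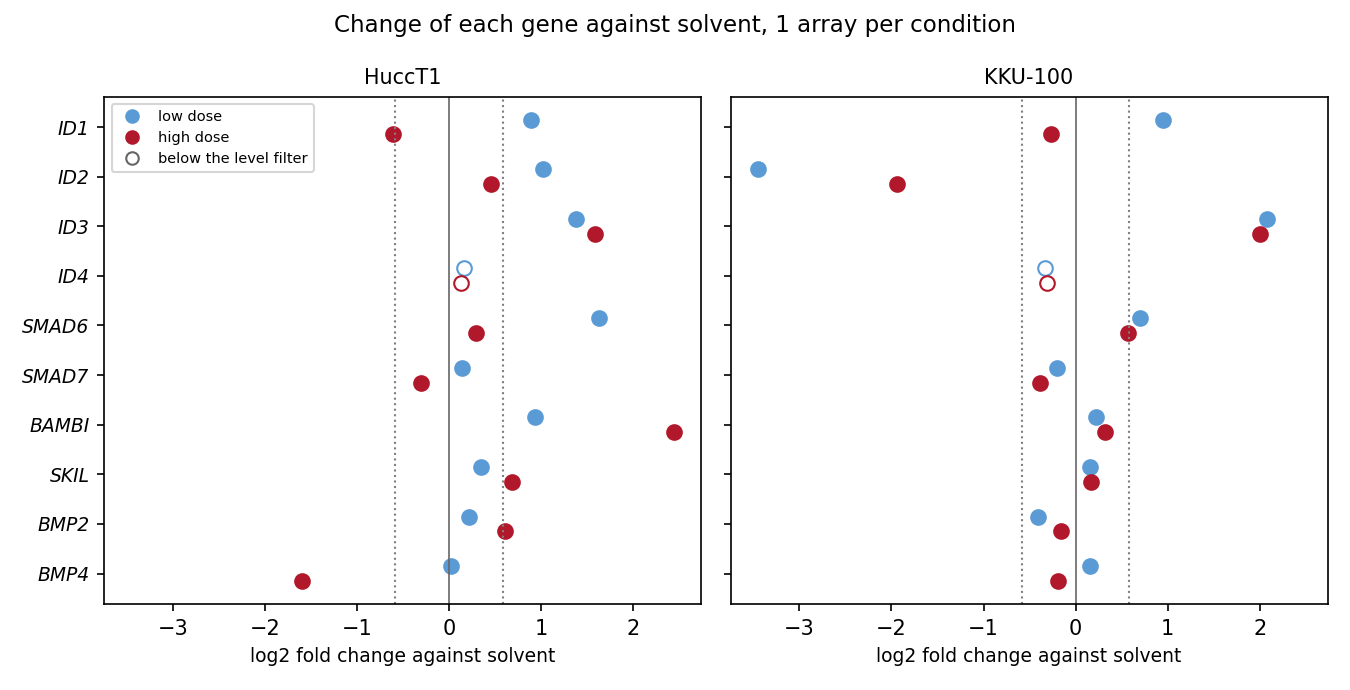
Change of the 10 genes against solvent (log2 fold change), each by its brightest probe set, with HuccT1 on the left and KKU-100 on the right, blue for the low dose and red for the high dose; each point rests on 1 array, open circles are genes that failed the level filter, and dotted lines stand at 1.5-fold. ID2 has −3.45 and −1.94 for KKU-100 but 1.02 and 0.46 for HuccT1, ID3 lies right of the cutoff in all 4 comparisons, and SMAD7 between the dotted lines.

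Of the 9 genes above the level filter in HuccT1, 5 were higher past 1.5-fold at the low dose (ID1, ID2, ID3, SMAD6 and BAMBI), where 3.68% of 12789 genes were higher, and 0 were lower, against 3.32% of all. At the high dose in that line 4 were higher (ID3, BAMBI, SKIL and BMP2), with 8.23% of all genes higher, and 2 were lower (ID1 and BMP4), with 6.44% lower. After the low dose 3 of 9 in KKU-100 were higher (ID1, ID3 and SMAD6), against 9.75% of 12694 genes, and ID2 was lower, against 7.32%. At the high dose ID3 was higher and ID2 lower, where 9.44% of all genes were higher and 4.86% lower. The median log2 fold change over the 9 genes was 0.89 and 0.46 in HuccT1, against 0.16 and −0.15 for KKU-100, and over all genes above the filter it was 0.02 at both doses in HuccT1 and 0.06 at both in KKU-100. The genes were selected on these contrasts, so nothing is read from the counts. The solvent array of a line serves both doses, and a change at both doses is not a repeat. With 1 array per condition, whether the lines differ in the response of ID2 was not tested.

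The lines were also compared with each other, by limma on the 6 arrays, 3 per line, with the treatment as a factor. This estimate is the mean of the difference at the 3 treatments, so it takes in the dose responses on which the genes were selected, and its p-values are not independent of that choice. The difference of the 2 solvent arrays holds no treated array, but it has no test. The same solvent arrays enter every dose comparison, so this difference is not independent of the selection either. By limma 8 of the 9 genes differed at an adjusted p under 0.05, 7 lower and 1 higher in KKU-100. Calls are common in this comparison, since 26.3% of 12833 genes were lower and 27.9% higher in KKU-100. For 7 of the 9 genes the 3 arrays of the lines did not overlap, as for 59% of the 12833 genes; for ID1 and SKIL they did.

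BMP4 was lower in KKU-100, with a log2 difference of −4.12 between the solvent arrays and −3.61 by limma (standard error 0.30, adjusted p = 0.000385), and signals of 54.1 to 68.6 against 354 to 1087. For BMP2, the other ligand, the solvent difference was −1.16 and the limma estimate −1.62 (standard error 0.19, adjusted p = 0.00118). ID3 differed by −2.10 between the solvent arrays and by −1.72 by limma (standard error 0.17, adjusted p = 0.000678). Both ligands and ID3 thus stood lower in KKU-100. ID1 was at −0.92 between the solvent arrays and −0.79 by limma (standard error 0.10, adjusted p = 0.00167). SMAD7 was at −1.08 and −1.22 (standard error 0.13, adjusted p = 0.00103 by limma). The difference of SMAD6 was −1.83 and −2.05 (standard error 0.25, adjusted p = 0.00149 by limma) by its brightest probe set, and −0.65 as the mean over its probe sets (adjusted p = 0.00549 by limma). SKIL differed by 0.09 between the solvent arrays and by −0.14 by limma, with a 95% interval from −0.50 to 0.21 and an adjusted p of 0.433.

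BAMBI and ID2 are the genes whose estimates move most with the dose responses. BAMBI alone of the 9 was called higher in KKU-100, by 3.06 between the solvent arrays but by 0.94 at the high dose, where it had risen in HuccT1, with a limma estimate of 2.12 (standard error 0.40). For ID2 the log2 difference was −2.61 with solvent, −7.08 after the low dose and −5.01 after the high dose, and the limma estimate was −4.90 (standard error 0.79, 95% interval −6.90 to −2.91). The fit takes the response to be the same in both lines, whereas the measured changes of ID2 had opposite signs, a difference that was not tested. Without the treatment term, ID1 and ID3 were not called (adjusted p of 0.182 and 0.0618 from limma). The arrays of a line differ in treatment, and whether they come from separate cultures is not stated. With 1 array per line and treatment, the p-values of the fit with the treatment term rest on how far the line difference varied between treatments. They do not measure a spread between arrays of a condition or between cultures.

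Of 9 measured markers of other cell types, 5 passed the level filter in each line. Among those of mesenchymal cells COL3A1 was at 538 to 779 in KKU-100 and 6.51 to 8.62 in HuccT1, while COL1A1 and DCN were not called between the lines (limma differences of 0.17 and −0.02, adjusted p of 0.336 and 0.882). VWF, a marker of endothelium, was lower in KKU-100 by limma (−0.69, adjusted p = 0.00684). PECAM1, also of endothelium, was at 54.8 to 74.1 and was not called (limma difference 0.07, adjusted p = 0.744). The leukocyte marker PTPRC stayed below 11 on each array, whereas CD3E, of T cells, was at 37.3 to 44.3. Of the hepatocyte markers ALB stayed below 11 and APOA1 was at 16.8 to 22.7. CD3E, PECAM1, COL1A1 and DCN passed the filter in both lines, VWF in HuccT1 and COL3A1 in KKU-100. The summed signal of the 9 was 912 to 1176 in KKU-100 and 372 to 405 in HuccT1, a gap that lies in the COL3A1 probe set. The part of these differences in the values of the 10 genes was not tested.

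**Figure D4:**
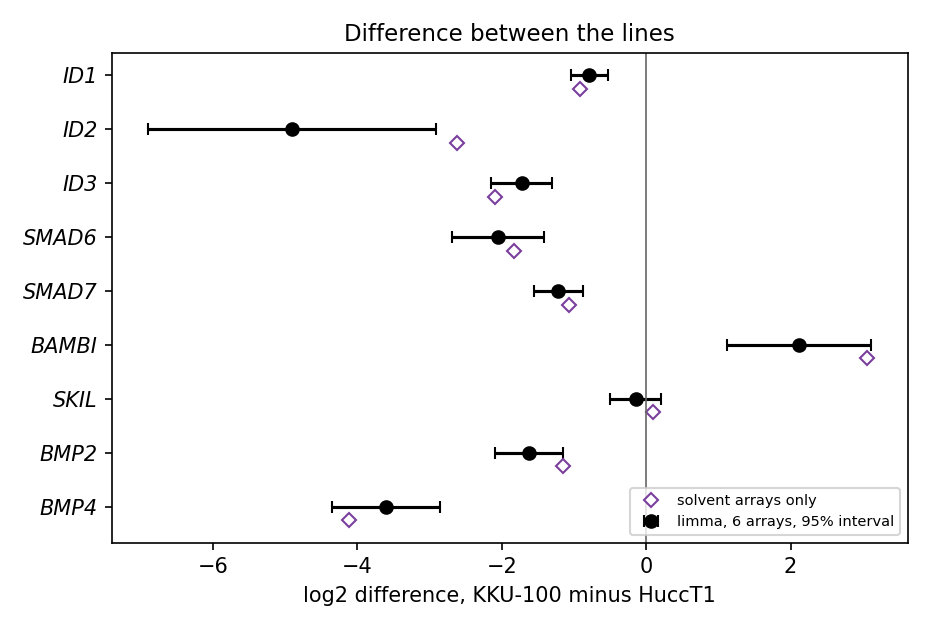
Log2 difference between KKU-100 and HuccT1 for the 9 genes above the level filter: black points show the limma estimate over 6 arrays with the treatment as a factor and bars its 95% interval, and open diamonds show the difference of the 2 solvent arrays. BAMBI lies right of 0, SKIL spans 0, and the black point of ID2 at −4.90 lies left of its solvent difference of −2.61.

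Around these genes, 60 of 62 further genes of the pathways had a probe set of their own, and 51 passed the level filter in HuccT1 and 54 in KKU-100. After the low dose 0 rose and 6 fell in HuccT1, and after the high dose 5 rose and 16 fell. For KKU-100 the low dose gave 6 rises and 15 falls and the high dose 1 rise and 12 falls. Against these stand the shares of all genes given above. In the limma comparison of the lines, 16 of 54 were higher and 17 lower in KKU-100, together 61.1%. Of all 12833 genes in that comparison 27.9% were higher and 26.3% lower, together 54.1%. Medians over the list were −0.07 and −0.26 in HuccT1, against −0.09 and −0.19 for KKU-100.

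Among the ligands, 0 of 8 passed the cutoff in HuccT1 at the low dose, against 7.01% of all genes. At the high dose in that line 1 was higher and 4 were lower, against 8.23% and 6.44% of all genes. Lower were INHBA, the activin A subunit (−1.49), INHBB (−1.04), TGFB2 (−1.11) and TGFB1 (−0.78), and GDF15, a stress-induced member of the family, was higher (2.41). These 5 were named after their values were seen. In KKU-100, BMP6, a ligand that acts through the same SMADs as BMP2, fell at both doses. Its signal there was 547 with solvent, 248 after the low dose and 230 after the high dose, with log2 fold changes of −1.14 and −1.25. In HuccT1 BMP6 was between 17.7 and 26.3, below the array median.

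Of 10 receptors, 1 was higher and 3 were lower in HuccT1 at the high dose, against 8.23% and 6.44% of all genes. ACVR2A, a type II receptor for activins and BMPs, fell in KKU-100, with a signal of 354, 134 and 182 and log2 fold changes of −1.41 and −0.96. In HuccT1 it was at 0.11 and 0.79, higher past the cutoff at the high dose. Of 5 SMADs above the filter, SMAD1, which carries the BMP signal, was higher at the high dose in both lines, by 1.27 in HuccT1 and 0.69 in KKU-100, and at 0.53 and −0.07 at the low dose; it was named after its values were seen. NOG, which encodes noggin, a secreted trap of BMP2 and BMP4, fell in HuccT1 from 198 to 77.8 and 45.1, by a log2 of −1.35 and −2.14. In KKU-100 NOG was at 0.82, past the cutoff in the other direction, and at −0.11. So in HuccT1 at the high dose both BMP4 and the BMP antagonist NOG were lower.

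Of the 8 genes listed as intracellular repressors, 4 fell and 2 rose with the low dose in KKU-100, where 7.32% of all genes fell and 9.75% rose. The falls include RNF111 (−1.01), a ubiquitin ligase that acts against SMAD7, SKI and SKIL and is not itself a repressor. It was named after its values were seen. SMURF2, the ligase that SMAD7 brings to receptors, fell in all 4 comparisons, from 2396 to 1144 and 855 in HuccT1 and from 1745 to 1106 and 1033 in KKU-100. The log2 fold changes of SMURF2 were −1.07 and −1.49, and −0.66 and −0.76. NEDD4L, another ubiquitin ligase that acts on SMADs, also fell in all 4, by −0.85 and −0.91 in HuccT1, against −1.52 and −1.27 for KKU-100. SKI, the founding relative of SKIL, was within the cutoff in HuccT1 (−0.19 and −0.33) and fell in KKU-100 from 2330 to 931 and 1245, by −1.32 and −0.90.

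Of 6 other BMP targets, 0 were higher past the cutoff in KKU-100 at either dose, where 9.75% and 9.44% of all genes were. With so few genes, nothing is read from these counts. MSX2, a homeobox gene induced by BMPs, was at 0.33 and 0.63 in HuccT1 and fell in KKU-100 from 197 to 93.0 and 110, by −1.08 and −0.85. DLX2, another homeobox gene, fell in KKU-100 from 79.2 to 16.7 and 38.1, the first below the array median, by −2.25 and −1.06, and was below the array median in HuccT1. The signs of MSX2 in the 4 comparisons are those of ID2, as for 8.18% of the 12033 genes above the level filter in both lines. Of the TGF-beta targets, CCN2 (CTGF) was lower in all 4, by −1.28 and −1.84 in HuccT1, against −5.52 and −5.14 for KKU-100. The paper treats CTGF as a downstream factor of YAP1 and measured it by RT-PCR. Which pathway its fall reflects was not tested. LTBP2, named as a latent TGF-beta binding protein, fell in HuccT1 (−0.67 and −1.82). In KKU-100 LTBP2 was at −0.45 and −0.59, the second just past the cutoff. JUNB, an AP-1 subunit, fell in KKU-100 (−1.52 and −1.64).

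The E proteins, the partners that ID proteins hold back, stayed within 1.5-fold. TCF3 lay between −0.19 and 0.23 and TCF12 between 0.18 and 0.52 over the 4 comparisons, and TCF4 was below the array median in both lines. HES1, a helix-loop-helix repressor, fell in KKU-100 from 1333 to 636 and 428, by −1.07 and −1.64, and was lower in HuccT1 at the low dose (−0.72) and within the cutoff at the high dose (−0.19).

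**Figure D5:**
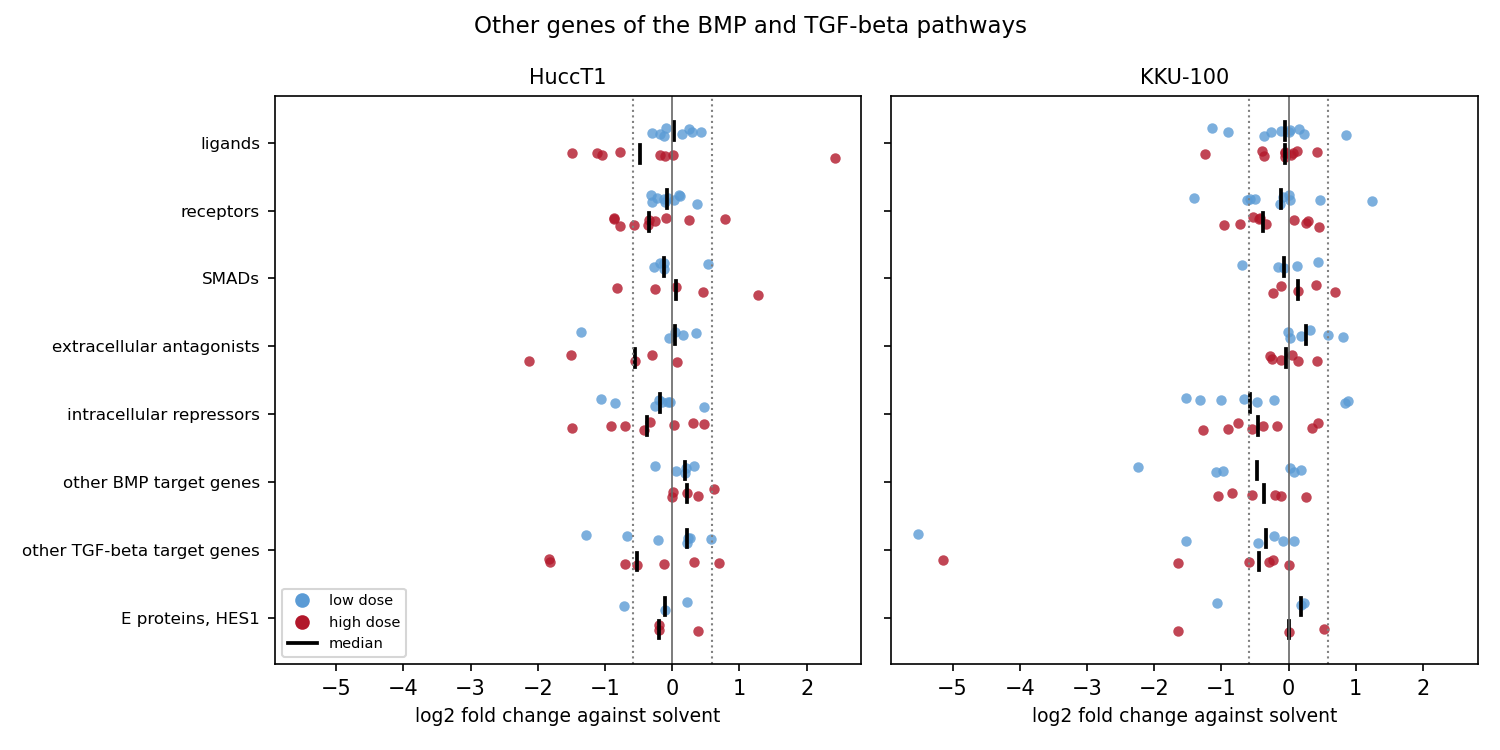
Changes (log2 fold change from solvent) of the further genes of the BMP and TGF-beta pathways above the level filter, by group, with HuccT1 on the left and KKU-100 on the right, blue for the low dose and red for the high dose, 1 point per gene; bars mark medians and dotted lines 1.5-fold. The group labelled intracellular repressors, which also holds RNF111, has medians of −0.57 and −0.46 in KKU-100, and the ligands −0.48 at the high dose in HuccT1.

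For each of 3 ID genes, the 5 nearest of 12032 other genes were taken by Euclidean distance over the 4 log2 fold changes. ID1 lay nearest to CITED2, a transcriptional coregulator, at a distance of 0.47, followed by CD24 (0.58), SLC2A3 (0.63), FAM20C (0.66) and PLAC8 (0.67). ID3 lay nearest to JDP2, a repressor of AP-1, at 0.76, with log2 fold changes of 1.75 and 2.14 in HuccT1, against 1.72 and 1.99 for KKU-100, then to PPM1H (0.80), ARIH2OS (0.94), FLVCR2 (1.00) and ZHX2 (1.07). For ID2 the nearest genes were farther off, namely TENT5C (1.27), AOC2 (1.32), FBXO24 (1.35), PELI1 (1.36) and TRIM36 (1.47). All 5 were chosen for changes like those of ID2. At the low dose in KKU-100 their signals were between 23.1 and 37.1, close to or below the array median, so that neither the size of their falls nor their order by distance is firm. In HuccT1 they were between −0.11 and 0.10 at the low dose, where ID2 was at 1.02. None of the 10 genes was among these neighbours. The distances rest on 4 differences that share 2 solvent arrays.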

How the data were processed

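RNA from 2 lines was hybridized to Affymetrix arrays, 1 per line and treatment. The deposited files hold signal intensities, for which the submitters' notes name MAS5, while the paper describes log2 values from GeneSpring; the MAS5 version and how the arrays were scaled to each other are not given in the sources used here. Groups follow the sample labels.

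The 62 control probe sets were left out. Of 54613 others, 41091 carry 1 gene symbol in the platform annotation, 1801 several and 11721 none, and symbols were updated through gene identifiers. The deposited intensities were log2 transformed, and the brightest probe set (by mean log2 signal) stood for a gene. A gene passed the level filter of a line at or above the 50th percentile of mean log2 signal. Changes past 1.5-fold were counted, with no p-value. Cell lines were compared in R 4.3.3 by limma 3.58.1, using lmFit with line and treatment and eBayes with a trend (3.42 prior and 2 residual degrees of freedom), and p-values were adjusted by Benjamini-Hochberg over 12833 genes. The fit was run on simulated data with a constant line difference and no treatment effect. That run does not cover a line difference that varies between treatments. Python 3.11.15, numpy 2.4.6 and pandas 2.3.3 did the rest. The members and lists were chosen with earlier results of these data known. The genes named are the 10 members, for each pathway group and line at most 3 genes past 1.5-fold in 1 direction at the 2 doses (largest at the high dose), the E proteins and HES1, and the 5 nearest genes of ID1, ID2 and ID3. Others are stated as chosen after their values were seen. The alternatives were quantile normalization, centring, a floor at the 20th percentile, other level filters, a summary over probe sets, a 2-fold cutoff, eBayes without a trend, no treatment term and leaving out each array.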

Additional observations from a re-analysis of the deposited data

Results flagged for a closer look

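The genes named above for their dose changes, without the cell type markers, were searched for opposite signs in the lines. Of those that passed the level filter in both lines, 8 had changes of one sign at both doses in HuccT1 and of the other sign at both doses in KKU-100. As the mean log2 fold change over the 2 doses, ID2 was at 0.74 in HuccT1 and −2.69 in KKU-100, a difference of −3.43. BMP2 was at 0.41 and −0.28 (difference −0.69). Among the pathway genes, GDF15 was at 1.42 and −0.38 (difference −1.80), ACVR2A at 0.45 and −1.18 (difference −1.63), MSX2 at 0.48 and −0.96 (difference −1.44) and TCF3 at −0.15 and 0.12 (difference 0.27). TENT5C was at 0.56 and −2.76 (difference −3.31) and AOC2 at 0.07 and −2.17 (difference −2.24), both named for changes like those of ID2. The differences were not tested, since each line has 1 solvent array. Of 12033 genes above the level filter in both lines, 984 (8.18%) were higher at both doses in HuccT1 and lower at both in KKU-100 by any amount, and 1488 (12.4%) were the reverse, so the signs alone are common.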

How the results depend on the processing

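With a cutoff of 2-fold in place of 1.5-fold, 3 genes in place of 5 were past it in HuccT1 at the low dose, 3 in place of 6 at the high dose, and 2 in place of 4 in KKU-100 at the low dose. Quantile normalization, centring, the floor at the 20th percentile, the other level filters and the median over probe sets kept the 4 counts within 1.5 times. ID1 in HuccT1 at the high dose was at −0.58 after quantile normalization, inside the cutoff, and SMAD6 in KKU-100 at the high dose was at 0.59 after centring, past it. The line difference of SKIL turned to 0.0931 as the mean over its probe sets (adjusted p = 0.663, limma), and that of SMAD6 shrank from −2.05 to −0.65 but was still called. With any 1 array left out, limma called 8 of the 9 genes, the same 8 each time. Leaving out an array takes its treatment out of the line difference, so either array of a treatment gave the same estimate. For ID2 it was −6.05 without a solvent array, −3.81 without a low-dose array and −4.85 without a high-dose array. These fits are thus not separate checks of each array. Without the treatment term limma called 6. The comparison of the lines is paired by treatment through its treatment term, and no dose comparison could be paired, since each group holds 1 array. The solvent array of a line enters both of its dose comparisons and has no replicate, and low signals, as of ID2 in treated KKU-100 and of ID4, limit the size of a fold change.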

Other observations

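A probe set annotated to ID2 together with ID2B is left out of the gene-level values. For HuccT1 it gave signals of 101 (solvent), 171 (low dose) and 107 (high dose), and for KKU-100 47.1, 18.4 and 41.1. The log2 fold changes of this probe set were 0.76 and 0.08 in HuccT1, against −1.35 and −0.20 for KKU-100.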
